A study of Zea mays with 4 samples.

Results

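A small group of maize genes that take up, store and chelate iron was followed in leaf 6 of the inbred line B73 under high and low nitrogen supply. The group was defined by name as 7 genes: the transporter YS1, the ferritins FER1 and FER2, the YS3 type exporter GRMZM2G063306, and 3 loci taken as nicotianamine synthases, GRMZM2G478568, GRMZM2G439195 and GRMZM2G050108. Of these, 6 were found among the 43110 distinct loci of the table. FER2 had no entry under that name and was not analysed here. The choice was made with the nitrogen responses of YS1 and FER1 in these libraries already known, so the values below describe these genes, and their number is not a test of the group. Each name found belonged to a single locus, so no choice between loci by expression level was needed.

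B73, the inbred line of the maize reference genome, was grown in hydroculture with 4 mM nitrate throughout (high nitrogen, HN), or was moved to 0.04 mM nitrate once the third leaf had expanded (low nitrogen, LN). Both solutions contained the same iron source, EDTA-Fe, according to the methods, and calcium was kept equal. The methods give the sampled material as mature tissue of an expanding leaf, and a figure caption names the sixth leaf. Per treatment 2 libraries were sequenced, 4 in all, which are described as biological replicates. Expression is given as FPKM, which scales the fragments of a transcript to its length and to the size of the library.

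Grasses acquire iron with phytosiderophores, small chelators of the mugineic acid family. Nicotianamine synthase makes nicotianamine from S-adenosylmethionine, and nicotianamine is both a metal chelator inside the plant and the precursor of deoxymugineic acid. The exporter of the YS3 type releases deoxymugineic acid, and YS1 imports the iron complex. YS1 is named for the yellow-striped, iron-starved leaves of the mutant. Ferritin stores iron, in plants chiefly in plastids, where much of the iron of a leaf is used by the photosynthetic electron transport chain.

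The libraries differed in ways that bear on these values. The FPKM of all loci summed to between 1764398 and 1798408 in HN and to between 1043303 and 1141129 in LN. Fragment totals cannot be read from FPKM. A rough relative depth was taken from the most frequent ratio of low FPKM values between libraries, assuming that such loci hold a single fragment. It placed the LN libraries at 1.44 and 1.73 times the depth of HN replicate 1, and HN replicate 2 at 1.14 times. These ratios rested on 260, 200 and 272 loci, in that order. Leaf identity was checked with the marker loci fixed for it. The FPKM of 7 loci matched to mesophyll symbols summed to 37810 and 25906 in HN and to 13705 and 10596 in LN. GRMZM2G083841 (19557 and 13126 FPKM in HN, 4803 and 2630 FPKM in LN) and GRMZM2G306345 supplied most of it. The small loci GRMZM2G097821 (12.2 and 15.4 FPKM in HN, 20.8 and 19.6 FPKM in LN) and GRMZM5G899080 were higher in both LN libraries. The FPKM of 4 bundle sheath loci, matched to 3 of the 5 listed symbols, summed to 14741 and 19702 in HN and to 8938 and 4854 in LN. The smallest of them, a second RBCS locus, had 19.9 FPKM in HN replicate 2 and 49.6 FPKM in LN replicate 1. It had almost no signal in HN replicate 1 and LN replicate 2. Markers of both leaf cell types were thus present in every library, and both sums were lower in both LN libraries than in both HN libraries. The single root marker found of 3 listed, ZRP4, had 21.3 and 17.9 FPKM in HN and 6.71 and 2.84 FPKM in LN, so it too was lower in LN. The part of these markers in the values below was not tested. In whole leaf tissue, fewer cells that express a gene and less RNA per cell cannot be told apart.

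The YS1 locus spans positions 190726052 to 190729182 of chromosome 5 (B73 RefGen_v3), a length of 3131 bp. It had 285 FPKM in HN replicate 1 and 706 FPKM in replicate 2, against 4.52 and 4.79 FPKM in LN replicates 1 and 2. Both HN libraries thus lay far above both LN libraries. The mean was 495 ± 298 FPKM (SD, n = 2) in HN and 4.66 ± 0.190 FPKM (SD, n = 2) in LN, 106-fold lower. Among the tested loci, YS1 stood at the 97.5 and 98.9 percentiles of expression in the HN libraries and at the 31.0 and 32.8 percentiles in the LN libraries. It therefore passed from among the highly expressed genes of the leaf to the lower part of the ranking.

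YS1 fell by 6.31 on the log2 scale (95% interval from -7.51 to -5.11, limma adjusted p = 0.0205). It was the only one of the 5 tested members that was called, where a call required the adjusted p to be under 0.05 and the log2 fold change to exceed 1 in size. Calls were made at 0.537% of all 22889 tested loci, and 0.489% were called as lower. The call, though not the direction, depended on the libraries and the filter. With HN replicate 2 left out the adjusted p was 0.0609, it was 0.210 and 0.182 without LN replicates 1 and 2, and it was 0.0681 when loci of low FPKM were kept in the test.

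**Figure D1:**
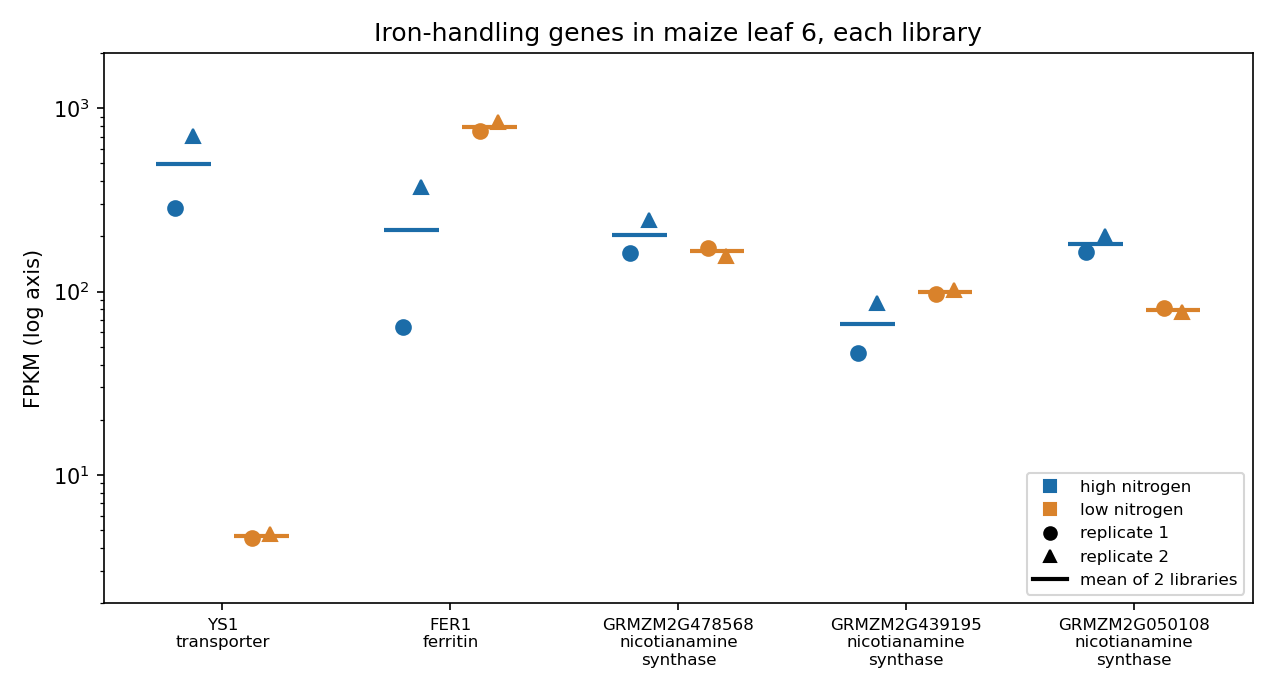
FPKM on a log axis of the 5 members above 0 in each library, with circles for replicate 1, triangles for replicate 2 and a bar for the mean of 2 libraries, in blue for HN and orange for LN. YS1 dropped from 285 and 706 to 4.52 and 4.79 FPKM, the LN points of FER1 lie above its HN points, and the nitrogen treatments of GRMZM2G478568 overlap.

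FER1, the ferritin, showed the opposite order of treatments. Its locus spans 183760831 to 183763850 of chromosome 4. FER1 had 64.1 and 371 FPKM in HN replicates 1 and 2, and 749 and 836 FPKM in LN. Both LN libraries lay above both HN libraries, but the HN libraries differed 5.79-fold from each other. The mean was 218 ± 217 FPKM (SD, n = 2) in HN and 792 ± 61.9 FPKM (SD, n = 2) in LN, a ratio of 3.64. The log2 fold change of 2.35 (95% interval from 0.21 to 4.49) did not pass the threshold after adjustment (limma adjusted p = 0.221). Without HN replicate 1 it was 1.09, and without HN replicate 2 it was 3.60, so the size of the difference was set largely by which HN library was used.

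Markers of leaf senescence were measured beside FER1, since leaves short of nitrogen can age early. The 3 loci of that list, SEE1, SEE2A and SEE2B, summed to 1098 and 1323 FPKM in HN and to 4067 and 3361 FPKM in LN. SEE2B, which encodes a protease of the legumain type, had 190 and 520 FPKM in HN and 1571 and 1737 FPKM in LN (log2 fold change 2.39, limma adjusted p = 0.130). As with FER1, its lowest library was HN replicate 1, whereas SEE1 and SEE2A (68.2 and 60.3 FPKM in HN) were lowest in HN replicate 2. SEE1, a cysteine protease gene, had 840 and 743 FPKM against 2425 and 1546 FPKM, and SEE2A had a log2 fold change of 0.21. None of the 3 was called without a block. With the replicate number as a block, a pairing that the labels do not give, SEE2B and the root marker ZRP4 were called by limma (adjusted p = 0.0477 and 0.0442), as were 2.7% of all tested loci. The part of senescence in the FER1 values was not tested.

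Scaling a library by a single factor, unlike quantile normalization, leaves its ratio of FER1 to YS1 unchanged. This ratio was 0.225 and 0.526 in HN replicates 1 and 2, and 166 and 174 in LN. YS1 was the more abundant transcript of the pair in both HN libraries and FER1 in both LN libraries. For such a ratio, the smallest two-sided p of an exact permutation test of 2 libraries against 2 is 0.333, and the ratio is given as values.

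The 3 nicotianamine synthase loci were all well expressed, and the order of the treatments was not the same for each. GRMZM2G050108, on chromosome 7 from 174448119 to 174450107, had 164 and 201 FPKM in HN and 81.2 and 76.9 FPKM in LN. Both LN libraries were below both HN libraries, with means of 182 ± 26.4 and 79.1 ± 3.06 FPKM (SD, n = 2 each). The log2 fold change was -1.19 (95% interval from -1.80 to -0.58, limma adjusted p = 0.122), which did not pass. It was -0.49 when the FPKM sums were made equal, which is -1.08 relative to the median of all tested loci under that scaling.

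GRMZM2G439195, at 15816565 to 15818557 of chromosome 5, lay the other way round. The locus had 46.0 and 86.4 FPKM in HN and 97.3 and 103 FPKM in LN, so that both LN libraries were above both HN libraries. The gap was small next to the difference between the HN libraries, and the log2 fold change of 0.65 (95% interval from -0.26 to 1.57) was not called (limma adjusted p = 0.373). It was 0.21 without HN replicate 1 and 1.10 without HN replicate 2. At equal FPKM sums it was 1.35 (adjusted p = 0.0706), which is 0.76 relative to the median of all tested loci under that scaling.

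GRMZM2G478568, on chromosome 1 from 259836588 to 259838272, had 162 and 245 FPKM in HN and 174 and 157 FPKM in LN. Here the treatments overlapped. The log2 fold change was -0.27 (95% interval from -1.03 to 0.49, limma adjusted p = 0.651), and its sign turned to 0.11 under quantile normalization and to 0.43 at equal FPKM sums, so no direction can be given for this gene. Equal FPKM sums moved the median log2 fold change of all tested loci from -0.01 to 0.60. Relative to that median the value was -0.16, against -0.26 relative to the median without this scaling.

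Summed over the 3 loci, nicotianamine synthase expression was 372 and 533 FPKM in HN and 352 and 337 FPKM in LN. The sum differed by less between the treatments than between the HN libraries, while its make-up differed. GRMZM2G050108 supplied 44.0% and 37.7% of the sum in HN and 23.1% and 22.8% in LN. GRMZM2G439195 supplied 12.4% and 16.2% in HN and 27.6% and 30.5% in LN. GRMZM2G478568 remained near the same share, from 43.6% to 49.3% over the 4 libraries. In both HN libraries GRMZM2G050108 exceeded GRMZM2G439195, by 3.55 and 2.33 times, and in both LN libraries it was the lower of the pair, at ratios of 0.835 and 0.750. These shares and ratios are taken within a library, and with 2 libraries per treatment they are given as values without a test.

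**Figure D2:**
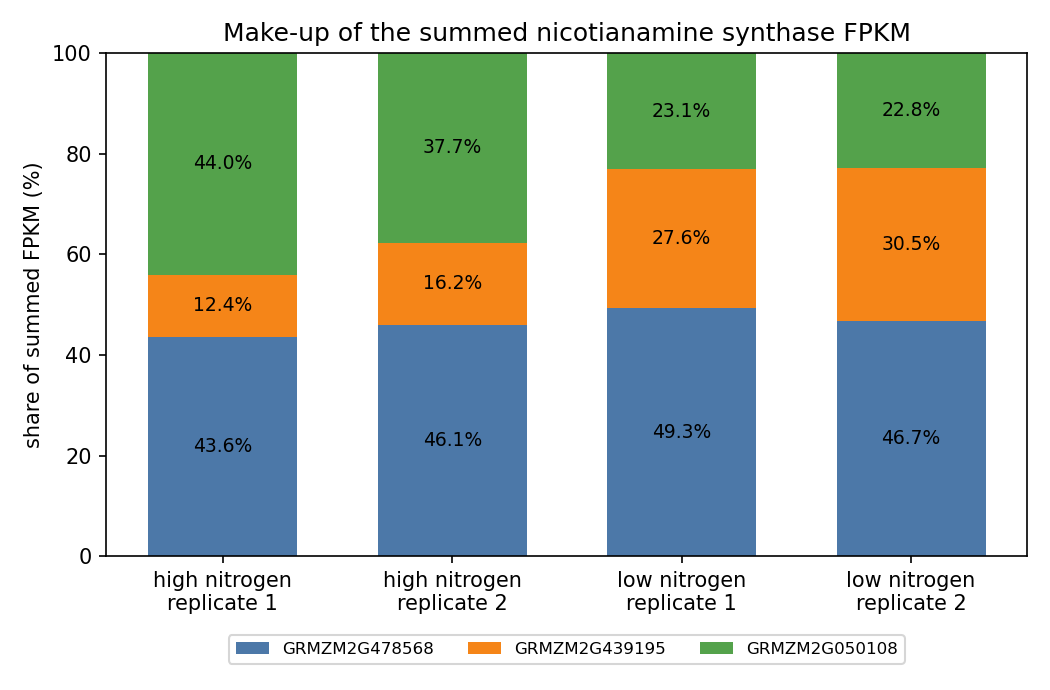
Share in percent of the summed FPKM of the 3 nicotianamine synthase loci that each locus held, with a stacked bar for each of the 4 libraries. GRMZM2G439195 held 12.4% and 16.2% in HN and 27.6% and 30.5% in LN, and GRMZM2G050108 held 44.0% and 37.7% and then 23.1% and 22.8%.

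GRMZM2G063306, the exporter of the YS3 type, which the reference also names ZmTOM1, was listed at 0 in all 4 libraries. Its locus is on chromosome 3 from 112059631 to 112065432, and it was not tested. A value of exactly 0 in an FPKM table can also be a failed estimate, so its absence from the leaf was not shown.

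The order of the members by mean FPKM, a scale per transcript length, differed between the treatments. In HN it was YS1, FER1, GRMZM2G478568 (204 ± 58.9), GRMZM2G050108 and GRMZM2G439195 (66.2 ± 28.6 FPKM, SD, n = 2). The libraries of YS1 and FER1 overlapped, as did those of FER1 and GRMZM2G478568 and those of GRMZM2G478568 and GRMZM2G050108, so only the last step of this order separated neighbours. In LN the order was FER1, GRMZM2G478568 (165 ± 11.7), GRMZM2G439195 (99.9 ± 3.73), GRMZM2G050108 and YS1, and no neighbours overlapped. The treatments did not overlap for 4 of the 5 tested members, with 2 lower and 2 higher in LN. Over all tested loci 53.8% did not overlap, 27.2% lower and 26.6% higher in LN. An unadjusted p under 0.05 from limma was found for 3 members, YS1, FER1 and GRMZM2G050108, and for 20.1% of all tested loci.

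All 5 tested members were higher in HN replicate 2 than in replicate 1, whichever way they differed between the treatments. The difference between these libraries on log2(FPKM + 1) was 2.51 for FER1, 1.31 for YS1, 0.89 for GRMZM2G439195, 0.60 for GRMZM2G478568 and 0.30 for GRMZM2G050108. Among the 3033 tested loci with a mean of at least 50 FPKM, 60.8% were higher in replicate 2, and the median absolute difference was 0.25. A difference at least as large as that of FER1 was found at 43 of these 3033 loci (1.42%), and one as large as that of YS1 at 160 (5.28%). The LN libraries gave another picture, since the members differed there by between -0.14 and 0.16, less than the median absolute difference of 0.41 of these loci. The members thus varied more than most loci of this level between the HN replicates and less than most between the LN replicates. In HN the margin of GRMZM2G050108 was narrow, since 43.7% of these loci differed at least as much. In LN, YS1 itself was far below 50 FPKM. What differed between the HN replicates was not tested.

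**Figure D3:**
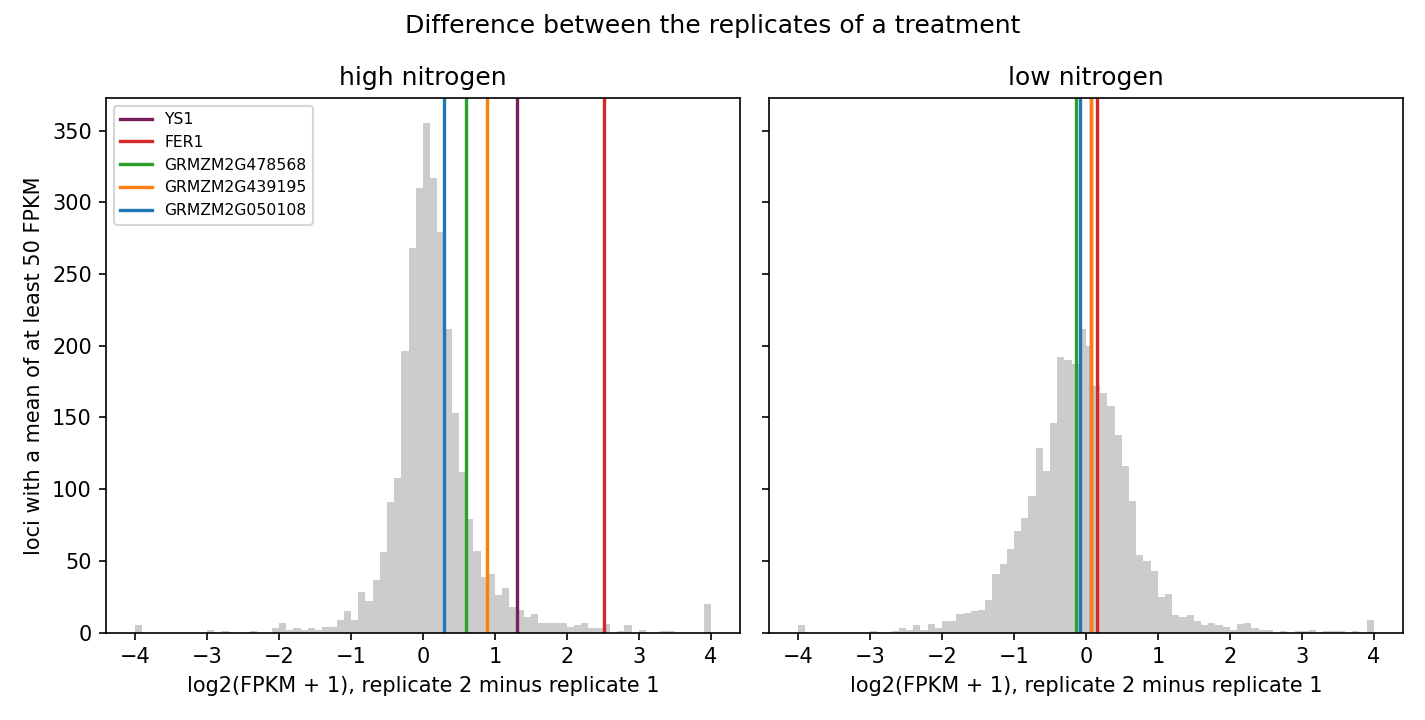
Histograms of replicate 2 minus replicate 1 on log2(FPKM + 1), in HN (left) and LN (right), for the 3033 tested loci with a mean of at least 50 FPKM, with values beyond 4 drawn at 4 in either direction and coloured lines for the 5 tested members. All 5 lines lie right of 0 in HN, up to 2.51 for FER1, and all lie between -0.14 and 0.16 in LN.

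Other iron genes were collected by a rule on gene names and reference symbols, set with earlier results of these libraries known. The reference gives no product names, so genes without a matching name or symbol could not be found. That rule found 10 further loci, of which 6 reached 1 FPKM in 2 or more libraries and were tested. Limma called 0 of these 6, against 0.537% of all tested loci, and 1 had an unadjusted p under 0.05, against 20.1%. Counts this small are close to those shares and set the list apart from other loci in neither direction. Their median log2 fold change was -0.18, against -0.01 over all tested loci, with 4 lower and 2 higher. At equal FPKM sums the medians were 0.47 and 0.60. Their log2 fold changes ran from -0.47 to 1.05, against -6.31 for YS1.

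Among the biosynthetic genes, DMAS1 (GRMZM2G060952), which encodes the synthase that completes deoxymugineic acid, had 29.9 and 41.4 FPKM in HN and 26.4 and 30.2 FPKM in LN. The treatments overlapped, and the 95% interval of its log2 fold change ran from -0.98 to 0.37 around -0.31. NAAT1 (GRMZM2G096958), the nicotianamine aminotransferase that acts before it, was far lower, between 2.35 and 5.59 FPKM, with a log2 fold change of -0.47 (95% interval from -1.37 to 0.43). The synthases nas1 and nas2, GRMZM2G385200 and GRMZM2G030036, were at 0 in every library but one, where nas2 had 0.392 FPKM. Of the 5 synthase loci named here, the 3 members alone reached a listed level that could be tested. As for GRMZM2G063306, a listed 0 can be a failed estimate. Absence of nas1 or a low level of nas2 was thus not shown.

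Of the transporters, ysl12 (GRMZM5G893444), a relative of YS1, was the locus of the list with the highest mean FPKM. It had 33.2 and 41.0 FPKM in HN and 96.4 and 62.6 FPKM in LN. The LN libraries were above the HN libraries, the reverse of YS1, but the log2 fold change of 1.05 (95% interval from 0.27 to 1.83) was not called (limma adjusted p = 0.173). Its neighbour on chromosome 10, ysl11 (GRMZM5G812538), reached no more than 0.178 FPKM, and ysl17 (GRMZM2G049238) was listed at 0 throughout. ysl14A (GRMZM2G368398) lay between 3.94 and 8.74 FPKM with overlapping treatments. ZIP4 (GRMZM2G111300) had 35.8 and 28.6 FPKM in HN and 29.2 and 19.0 FPKM in LN. Nramp1 (GRMZM2G147560), of a family of divalent metal transporters, was low, from 0.578 to 3.22 FPKM, with a log2 fold change of 0.85 that was not called (adjusted p = 0.294).

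**Figure D4:**
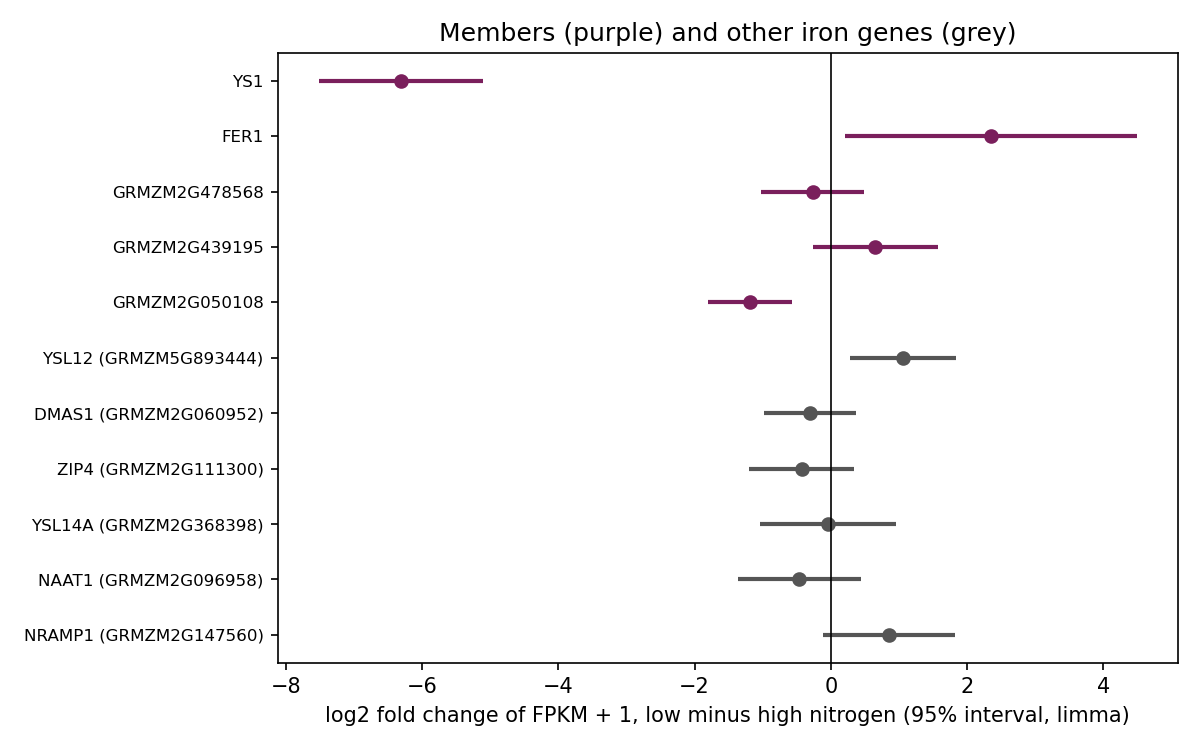
Log2 fold change of FPKM + 1, LN minus HN, with 95% intervals from limma, for the 5 tested members (purple) and the 6 other tested iron genes (grey). The interval of YS1, from -7.51 to -5.11, lies apart from all others, and ysl12, at 1.05, has the highest value among the grey genes.

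Of the genes of S-adenosylmethionine metabolism, the rule on names found 1 locus, SAMDC. It encodes S-adenosylmethionine decarboxylase, which uses the substrate of nicotianamine synthase for polyamine synthesis, and no gene that makes this substrate was among the loci that the rule found. It had 863 and 1074 FPKM in HN and 245 and 315 FPKM in LN, with a log2 fold change of -1.79 (95% interval from -2.50 to -1.07). It was not called (limma adjusted p = 0.0885), although each LN library was lower than each HN library. With the replicate block its adjusted p from limma was 0.0424 and it was called.

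The loci most like YS1 over the 4 libraries were sought by the distance between log2(FPKM + 1) values, each centred on its own mean. The 3 nearest annotated loci were GRMZM2G372440 on chromosome 3, GRMZM2G026780 on chromosome 1 and GRMZM2G467977 on chromosome 7, at distances of 0.22, 0.24 and 0.42. GRMZM2G372440 had 51.8 and 114 FPKM in HN, and in LN 0.0980 FPKM in replicate 1 and a listed 0 in replicate 2. GRMZM2G026780 had 255 and 551 FPKM in HN and 3.07 and 3.20 FPKM in LN, close to the levels of YS1 itself. GRMZM2G467977 had 60.7 and 175 FPKM in HN and was listed at 0 in both LN libraries. All 3 were called by limma and, like YS1, were higher in HN replicate 2 than in replicate 1, which follows largely from their choice by pattern. The reference attaches no function to these loci.

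For FER1 the nearest loci were GRMZM2G080079 (goliath1), GRMZM2G143883 and GRMZM2G305264, at distances of 0.12, 0.28 and 0.28. GRMZM2G080079, on the same chromosome as FER1, had 0.930 and 10.2 FPKM in HN and 21.6 and 26.6 FPKM in LN. GRMZM2G143883 had 4.36 and 28.6 FPKM against 74.2 and 78.8 FPKM, and GRMZM2G305264 had 2.71 and 15.1 FPKM against 34.7 and 40.9 FPKM. None of the 3 was called. Each repeated the wide difference between the HN libraries that FER1 showed. With 4 libraries, and with loci searched for this likeness, the distances describe the pattern and carry no test.

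**Figure D5:**
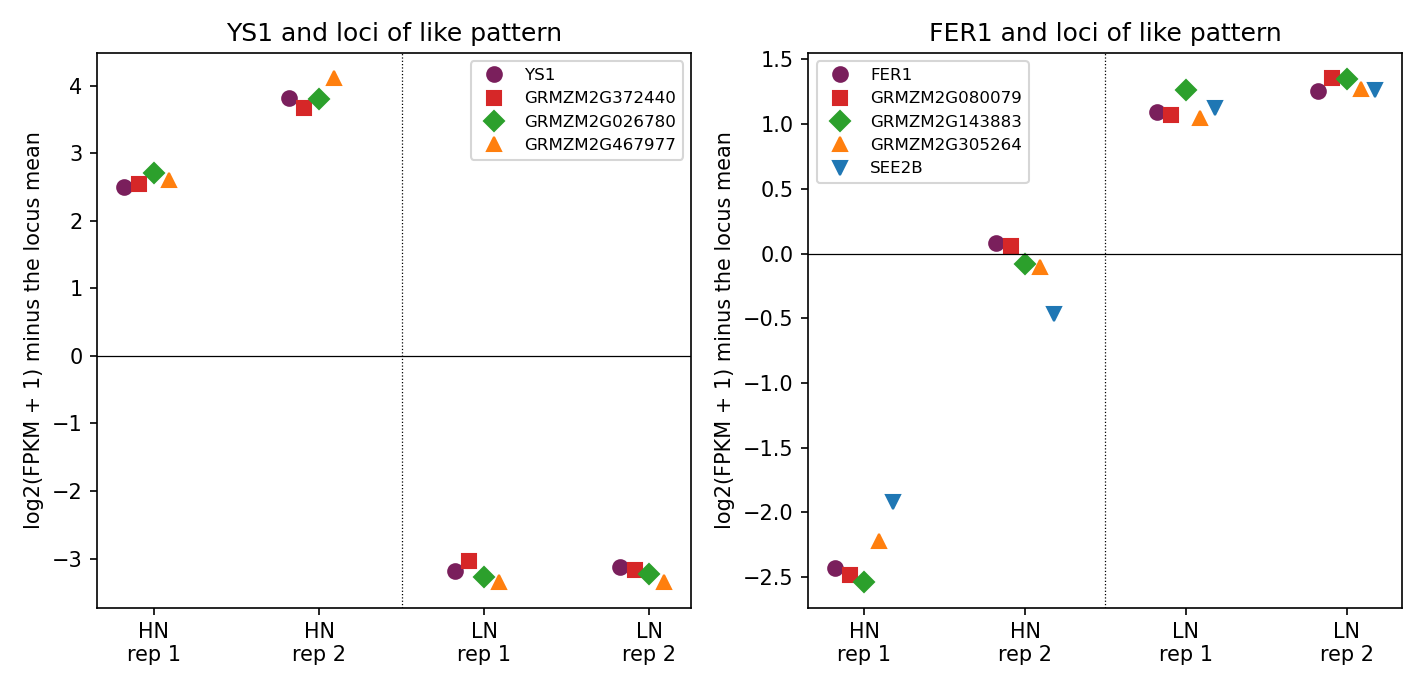
log2(FPKM + 1) minus the mean of the locus in each HN and LN library, for YS1 and its 3 nearest loci (left) and for FER1, its 3 nearest loci and the senescence marker SEE2B (right). HN replicate 1 is the lower of the HN libraries at every locus drawn, and in the right panel it is the lowest of the 4 libraries. The senescence markers SEE1 and SEE2A, which were higher in HN replicate 1 than in HN replicate 2, are not drawn.

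The members stand at scattered positions, on chromosomes 1, 3, 4, 5 and 7, and none of their loci overlapped another locus of the table. Their closest tested annotated neighbours were examined on each side, 10 loci at distances from 843 to 132719 bp. Limma called 0 of these 10, against 0.537% of all tested loci, and 0 had an unadjusted p under 0.05, against 20.1%. With 10 loci these counts set the neighbours apart from other loci in no way. Their log2 fold changes ran from -0.72 to 0.37. Next to YS1, GRMZM2G156575 at 8838 bp had 3.75 and 3.56 FPKM in HN and 5.01 and 5.02 FPKM in LN.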

How the data were processed

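Libraries made with an mRNA-Seq kit from RNA of leaf 6 were sequenced as paired-end reads, which the authors aligned to B73 RefGen_v3 with TopHat2 and assembled with StringTie (versions not given in the sources used here). The deposited FPKM values were computed by the authors for each locus and library. The authors' own edgeR test was not repeated, since FPKM are not counts. The table has 44070 rows for 43110 distinct loci, and each locus was used once, with its start written from 1.

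The 22889 loci that reached 1 FPKM in 2 or more libraries were tested, log2(FPKM + 1) was computed, which understates the change of low loci, and a linear model of the treatment was fitted in limma 3.58.1 under R 4.3.3 (eBayes with an intensity trend, no block, as the study's methods name none). Benjamini-Hochberg adjustment covered all tested loci. Intervals are at 95% and come from limma. Calls required an adjusted p under 0.05 together with a log2 fold change larger than 1 in size. The fit was tested on simulated data. Other steps used matplotlib 3.10.9, scipy 1.17.1, pandas 2.3.3, numpy 2.4.6 and Python 3.11.15.

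Samples were grouped by their labels. The members and lists were chosen with earlier results of these data known. Named were the members, list loci that were called or of high mean FPKM, and the 3 nearest loci in pattern. After their values were seen, the remaining list loci, the senescence markers, ZRP4 and single mesophyll and bundle sheath loci were also named. So were GRMZM2G156575 and the loci set beside YS1 and FER1 in the closing section. Gene names came from the table and from the RefSeq annotation of assembly Zm-B73-REFERENCE-NAM-5.0. The annotation matched 18838 of 39206 annotated names and gives no product names. No sequences were analysed here. Alternatives were another pseudocount, 2 other filters, 2 scalings, the replicate block, no trend, FPKM summed over the loci of a name, calls by the adjusted p alone, and each library left out. Fragment totals are unknown from FPKM, so no counting intervals are given.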

Additional observations from a re-analysis of the deposited data

How the results depend on the processing

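Not all of the 13 alternatives tried can move the log2 fold change of a member. The filters, no trend, the replicate block, calls by the adjusted p alone and summing over loci left it as it was. The other pseudocount, the 2 scalings and the libraries left out can move it. YS1 was lower in LN under each of these, from -6.97 to -5.66 on the log2 scale. YS1 had these same limits with 1 library left out. It lost its call (log2 fold change -6.31, adjusted p = 0.0681) when all loci above 0 were tested, a setting with more loci, and with 3 of the 4 libraries left out in turn, which leaves fewer libraries and assumes that a lone library varies like those of the other treatment. FER1, GRMZM2G439195 and GRMZM2G050108 kept their direction under all alternatives that can move it, and stayed uncalled with all 4 libraries in the fit. With all 4 libraries, their adjusted p from limma ran from 0.0709 to 0.318, from 0.0706 to 0.442 and from 0.0750 to 0.187. With 1 library left out, their log2 fold changes ran from 1.09 to 3.60, from 0.21 to 1.10 and from -1.34 to -1.04. The log2 fold change of GRMZM2G478568 turned to 0.11 under quantile normalization and to 0.43 at equal FPKM sums, and ran from -0.57 to 0.028 with 1 library left out. The median of the 6 tested iron genes outside the members moved to 0.47 at equal FPKM sums and ran from -0.28 to 0.16 with 1 library left out, and 0 of them were called by limma under any alternative.

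The number of called loci was 123. It was 23 with all 31737 loci above 0 tested, 59 at equal FPKM sums, and between 0 and 16 with 1 library left out, where 2012 to 3959 loci had an unadjusted p under 0.05. Blocking on the replicate number gave 617, and YS1 had an adjusted p of 0.00397, FER1 0.0865 and GRMZM2G050108 0.0750. Neither the labels nor the methods say that same-numbered libraries form a pair, and over all tested loci their deviations correlated at 0.203, so the pairing is not established. The block changed the call of no member and, of the other genes named, those of SAMDC (0.0424), ZRP4 (0.0442) and SEE2B (0.0477), which were then called. With 2 libraries per treatment, intervals as wide as that of FER1 leave the size of a difference poorly known.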

Other observations

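The drop of YS1 can be placed among all loci of its level. In HN 519 tested loci were at or above 285 FPKM in both libraries, and 4 of these, YS1 among them, were at or below 4.79 FPKM in both LN libraries. The other 3 were GRMZM2G061439, with 392 and 618 FPKM in HN and 0.376 and 0.153 FPKM in LN, and 2 assembled loci without an annotated gene, both listed at 0 in LN. Ordered by log2 fold change, YS1 had the fall of rank 17 among the 22889 tested loci.

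FER1 was placed in the same way. In LN 123 tested loci were at or above 749 FPKM, the lower LN value of FER1 itself, in both libraries. At 14 of these 123, FER1 included, both LN libraries were above both HN libraries. That is a smaller share than the 26.6% of all tested loci. A log2 fold change as large as that of FER1 was found at 3 of the 123. The other two were the senescence marker SEE2B and AC200099.4_FG003, which was listed at 0 in HN replicate 1 and had 1997 FPKM in HN replicate 2 and 4414 and 901 FPKM in LN, so that its treatments overlapped.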
